A study of Mus with 18 samples.

Results

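The suppressors of cytokine signalling (SOCS) form a family of feedback inhibitors, here its 8 members Socs1, Socs2, Socs3, Socs4, Socs5, Socs6, Socs7 and Cish. All 8 were found by gene symbol among the 21401 symbols of each of the 2 deposited expression tables, one for libraries labelled C2C12 and one for mouse gastrocnemius muscle. The family was chosen because Socs1 is far lower in muscle labelled LPS than in muscle labelled control. That contrast is therefore described for all members without a test, and Socs1 is described without a test in every muscle comparison.

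RNA-seq had been done on 18 libraries, 3 for each of 6 groups. C2C12 is a line of mouse myoblasts, given as wild type and treated with nothing but vehicle (control), with 1 μg/mL lipopolysaccharide (LPS), a bacterial cell-wall component, or with that dose of LPS plus moringa isothiocyanate-1 (MIC-1), a plant isothiocyanate. The labels put MIC-1 at 10 μM for 24 h, whereas the study's text names 1 μM for the sequenced myoblasts, and the dose was not settled here. Muscle came from male wild-type C57BL/6 mice, taken 16 h after LPS, with no age stated. The mice had received vehicle, 10 mg/kg LPS intraperitoneally, or the same LPS after MIC-1 at 80 mg/kg by gavage on each of 3 days. The labels name saline as the vehicle of the controls, whereas the study's text gives ethanol for control cells and DMSO by mouth for control mice. For cells, MIC-1 was dissolved in ethanol. The vehicle was not settled here. The study describes its data in general as repeated experiments, but nothing states for the sequenced C2C12 libraries that the replicates were separate cultures, so their p-values measure only the spread between these libraries, which may be technical.

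Cytokine receptors without kinase activity of their own bind Janus kinases (JAKs), which phosphorylate STAT transcription factors. The STATs switch on target genes, among them several SOCS genes, whose proteins then bind the activated receptor or kinase and shut the signal off. Every SOCS protein has an SH2 domain, which docks on phosphorylated tyrosines, and a SOCS box, which recruits elongins and a cullin into a ubiquitin ligase. Socs1 and Socs3 can also block JAK catalytic activity directly, and in muscle Socs3 is best known as the brake on interleukin-6 family cytokines, while Cish and Socs2 respond to growth hormone and STAT5.

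The labels were checked against marker genes before the members were compared. Among the C2C12 libraries, the summed level of 11 macrophage genes found of 13 listed, led by Lyz2 and Cd14, was between 8243 and 8369 FPKM in control and between 5459 and 5604 FPKM in LPS. FPKM counts sequenced fragments, scaled for transcript length and for the size of the library. In the LPS-MIC-1 libraries the same sum was 233 FPKM in replicate 1, 77.8 at the lowest and 90.5 at the median. Leaving out replicate 1 changed no call of a member. The 11 myogenic genes found of 12, which mark the muscle lineage, summed to between 1.13 and 1.61 FPKM in control, with 3 of them at 0 in every library. Their sum was between 2.62 and 4.60 FPKM in LPS, with 2 genes at 0, and between 1133 and 1434 FPKM in LPS-MIC-1, with no gene at 0 throughout. Myod1, the defining myoblast factor, was listed between 0 and 0.0355 FPKM in the 6 control and LPS libraries and between 49.5 and 56.7 FPKM in LPS-MIC-1. The markers thus go against the label C2C12 in the control and LPS libraries, so each difference below from LPS-MIC-1 is a difference between libraries with those labels, and cell type and treatment cannot be told apart in it. In the muscle table the 15 fibre genes summed to between 191524 and 250463 FPKM in all libraries, as the tissue label has it. The acute-phase genes Lcn2 and Saa3, which LPS is known to raise, were at most 1.34 and 1.33 FPKM in the libraries labelled LPS. In control, Lcn2 lay between 0.111 and 0.991 FPKM, and Saa3 was at 0 in every library, below all LPS libraries. Of 13 genes of an LPS and acute-phase list, 4 were called higher in LPS than in control and none lower, where 0.654% and 0.591% of all genes were. Mt1 and Mt2 of that list lay between 28.4 and 34.7 and between 7.70 and 8.41 FPKM in control. In LPS they lay between 82.6 and 88.5 and between 35.5 and 36.3 FPKM. Of the 13, 8 reached the filter of a mean FPKM over 1 only through the group where they are highest. Those 8 include 2 of the 4 called higher. In the LPS-MIC-1 muscle libraries, Lcn2 lay between 1162 and 1318 FPKM and Saa3 between 489 and 547.

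The make-up of the family is given first, table by table, since the 2 tables were normalized separately. Because FPKM is scaled for length, levels of different members can be set side by side within a library. Among the C2C12 libraries the 8 members summed to 56.5 ± 1.18 FPKM for control, 358 ± 2.61 for LPS and 82.0 ± 6.58 for LPS-MIC-1 (mean ± SD, n = 3). Socs3 supplied 58.5% of this sum for control, 83.2% for LPS and 28.4% for LPS-MIC-1. In muscle the sum was 139 ± 1.86 FPKM for control, 31.4 ± 1.54 for LPS and 38.0 ± 1.81 for LPS-MIC-1. Socs1 and Cish led in control muscle, with 35.0% and 33.8% of the sum, whereas Socs2 led in LPS, with 33.6%, and in LPS-MIC-1, with 31.7%. In a bulk sample, fewer cells of a type and less RNA per cell cannot be told apart.

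**Figure D1:**
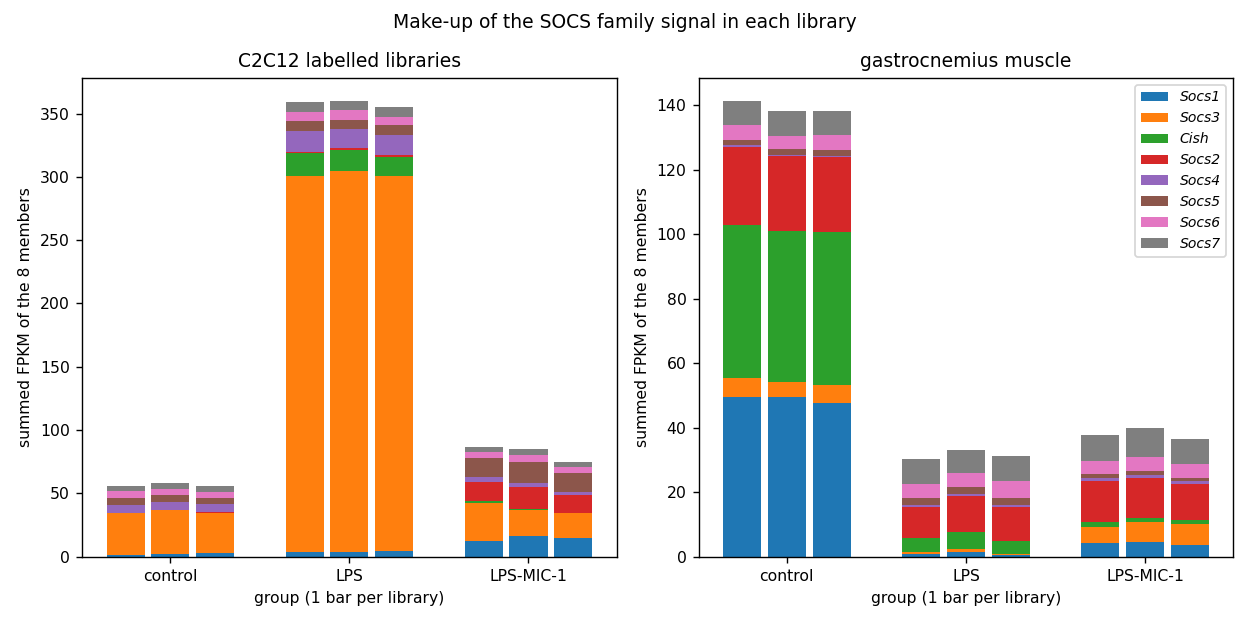
Summed FPKM (vertical axis) of the 8 SOCS family members, stacked by member, in each library (1 bar per library, grouped by control, LPS and LPS-MIC-1) of the C2C12 table and of muscle. Socs3 fills most of each C2C12 LPS bar, and the Socs1 and Cish blocks that make up most of the control muscle bars are small in the other 6 muscle bars.

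Differences between groups were tested with limma on log2(FPKM + 0.1) over all genes with a mean FPKM over 1, which left 10877 genes in the C2C12 table and 9475 in muscle. Calls needed an absolute log2 fold change over 1 together with a Benjamini-Hochberg adjusted p below 0.001 in the C2C12 table or below 0.05 in muscle. All 8 members passed the filter in the C2C12 table and 7 did in muscle, where Socs4 was too low. In the C2C12 table, Cish and Socs2 passed only through the group where each is highest, since their mean over the other 6 libraries was at most 1 FPKM. Their calls below are therefore not independent of the filter. A fold change on this scale understates the change of a gene near 0, and with 3 libraries against 3 an exact 2-sided permutation test cannot go below p = 0.1.

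In the C2C12 table, 4 of 8 members were called higher in LPS than in control (Cish, Socs2, Socs3 and Socs4) and none lower. Of all genes tested, 10.9% were called higher and 10% lower. The 3 LPS libraries lay above the 3 control libraries for all 8 members, as they did for 39.4% of the tested genes. Set against LPS, the LPS-MIC-1 libraries had 3 members called higher (Socs1, Socs2 and Socs5) and 3 called lower (Cish, Socs3 and Socs4), where 24.3% of all genes were called higher and 25.6% lower. Set against control, 3 members were called higher (Socs1, Socs2 and Socs5) and Socs4 lower, where 21.1% and 22.1% of all genes were. These comparisons share libraries, so their counts are not independent.

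**Figure D2:**
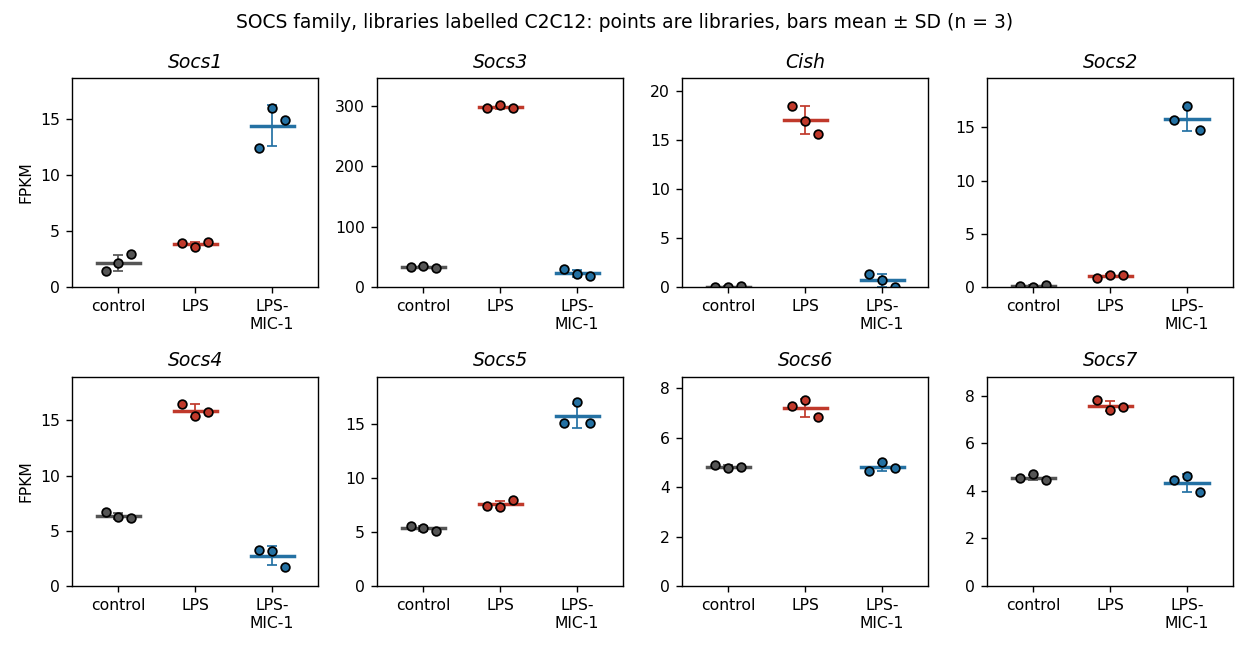
FPKM (vertical axes, each with its own range from 0) of each member in the 3 libraries of each group of the C2C12 table, as points, with the mean and SD as bars. Socs3, Socs4, Socs6, Socs7 and Cish are highest in LPS, whereas Socs1, Socs2 and Socs5 are highest in LPS-MIC-1.

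Socs3, the inhibitor that binds gp130 and related receptors, was the most abundant member in every C2C12 group. It had 32.8, 34.6 and 31.7 FPKM for control, 297, 301 and 296 for LPS and 29.9, 21.1 and 19.3 for LPS-MIC-1. The LPS libraries stood apart from the other 6, and LPS-MIC-1 lay below control in all 3. Socs3 was 9.02-fold higher in LPS than in control (log2 fold change 3.17, standard error 0.143, limma adjusted p = 6.95e-07). From LPS to LPS-MIC-1 it was 12.7-fold lower (log2 fold change -3.69, adjusted p = 7.56e-08). LPS-MIC-1 against control gave -0.52 on the log2 scale (adjusted p = 0.00954), which missed the threshold. Without replicate 1 of LPS-MIC-1 this difference was -0.71 (adjusted p = 1.33e-05), past the adjusted p but under the fold threshold.

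Socs1, which inhibits JAKs downstream of interferon receptors, ran the other way between LPS and LPS-MIC-1. Its levels were 1.46, 2.11 and 2.94 FPKM in control, 3.90, 3.58 and 4.03 in LPS, then 12.4, 15.9 and 14.8 in LPS-MIC-1. The 3 groups did not overlap. The difference of LPS from control, 1.77-fold, did not pass (log2 fold change 0.85, standard error 0.227, limma adjusted p = 0.0115). Socs1 rose 3.75-fold from LPS to LPS-MIC-1 (log2 fold change 1.87, adjusted p = 7.78e-05), and it was 6.63-fold higher in LPS-MIC-1 than in control (log2 fold change 2.72, adjusted p = 8.34e-06).

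Cish, the founding member, induced by STAT5, was nearly silent in control, with 0.0352, 0 and 0.0862 FPKM. It reached 18.5, 17.0 and 15.6 FPKM in LPS but only 1.33, 0.759 and 0 in LPS-MIC-1. LPS stood above both other groups, and those overlapped. Against control the log2 fold change was 6.97 (standard error 0.869, limma adjusted p = 0.000179), and adjusted p was 0.000225 in the fit without that filter. Its size depends on the added 0.1, since the control values rest on about 0 to 3.85 reads. Adding 0.01 gave 8.91, with an adjusted p = 0.0027 that no longer passed. The call was also lost without replicate 1 or 2 of control or without any 1 LPS library, with adjusted p between 0.00107 and 0.0012. From LPS to LPS-MIC-1, Cish was 24.5-fold lower (log2 fold change -5.10, adjusted p = 0.000638, and 0.000713 without the filter). This call was lost without any 1 control library, any 1 LPS library or replicate 2 of LPS-MIC-1 (adjusted p from 0.00143 to 0.00309). Adding 0.01 gave -6.29, with an adjusted p = 0.0106 that did not pass. LPS-MIC-1 against control gave 1.87 (adjusted p = 0.0771), and without LPS-MIC-1 replicate 3, the library at 0, it gave 3.02 (adjusted p = 7.11e-05).

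Socs2, the regulator of growth hormone receptor signalling, was near 0 in control and highest in LPS-MIC-1. It had 0.0793, 0.0523 and 0.181 FPKM in control, 0.900, 1.14 and 1.13 in LPS, then 15.6, 17.0 and 14.8 in LPS-MIC-1. The 3 groups were separate, and control rested on about 1.59 to 5.51 reads per library. LPS against control gave a log2 fold change of 2.55 (standard error 0.229, limma adjusted p = 2.67e-05), which became 0.90, under the fold threshold, with 1 added in place of 0.1. Without the filter its adjusted p was 4.15e-05. Socs2 rose 15.0-fold from LPS to LPS-MIC-1 (log2 fold change 3.79, adjusted p = 9.29e-07), the largest rise of any member in that comparison. Against control, LPS-MIC-1 was higher by 6.33 on the log2 scale (adjusted p = 5.17e-08).

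Socs4 and Socs5, a closely related pair known for acting on the epidermal growth factor receptor, moved in opposite directions from LPS to LPS-MIC-1. Socs4 had 6.70, 6.25 and 6.20 FPKM for control, 16.5, 15.4 and 15.8 for LPS and 3.29, 3.18 and 1.75 for LPS-MIC-1. Socs5 had 5.57, 5.37 and 5.14, then 7.47, 7.36 and 7.96, then 15.2, 17.1 and 15.1 FPKM in the same order. For both genes the 3 groups were separate. Socs4 fell 5.80-fold from LPS to LPS-MIC-1 (log2 fold change -2.55, standard error 0.216, limma adjusted p = 7.88e-06), while Socs5 rose 2.08-fold (log2 fold change 1.04, standard error 0.0761, adjusted p = 3.01e-06). Without replicate 2 of LPS-MIC-1 the Socs5 change was 0.99, and with 1 added in place of 0.1 it was 0.96, both just under the fold threshold.

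Against control, Socs5 in LPS-MIC-1 was 2.95-fold higher (log2 fold change 1.54, limma adjusted p = 3.23e-07) and Socs4 2.33-fold lower (log2 fold change -1.24, adjusted p = 0.00078). The Socs4 call did not pass without any 1 control or LPS library or without replicate 2 of LPS-MIC-1 (adjusted p from 0.00113 to 0.00397), and without replicate 3 of LPS-MIC-1 the change was -0.96. In LPS against control, Socs4 was called at 1.30 (adjusted p = 0.000904). That call was lost without any 1 control or LPS library, or without replicate 2 of LPS-MIC-1, with adjusted p from 0.00116 to 0.00477. It was also lost without the filter and with eBayes lacking the trend (adjusted p = 0.00111 in both). Socs5 differed between LPS and control by 0.50 (adjusted p = 0.000594), below the fold threshold.

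Socs6 and Socs7, which bind insulin receptor substrates and receptor kinases such as Kit, differed by under 1 on the log2 scale in each C2C12 comparison. Socs6 had 4.88, 4.77 and 4.83 FPKM in control, 7.26, 7.51 and 6.82 in LPS, then 4.67, 5.01 and 4.77 in LPS-MIC-1. Socs7 had 4.54, 4.69 and 4.46, then 7.82, 7.40 and 7.55, then 4.44, 4.63 and 3.94 FPKM. In both genes LPS lay above the other 2 groups, which overlapped. LPS exceeded control by 0.57 for Socs6 (limma adjusted p = 0.000271) and by 0.72 for Socs7 (adjusted p = 0.000142), past the adjusted p but under the fold threshold. LPS-MIC-1 lay below LPS by 1.50-fold for Socs6 (log2 fold change -0.57) and 1.75-fold for Socs7 (log2 fold change -0.80). Between LPS-MIC-1 and control, the 95% interval of the log2 difference ran from -0.18 to 0.17 for Socs6 and from -0.27 to 0.13 for Socs7.

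The order of the members therefore changed below Socs3. In control it ran from Socs3 through Socs4, Socs5, Socs6, Socs7 and Socs1 to Socs2 and Cish, which overlapped. In LPS, Cish and Socs4 came next after Socs3 and did not differ beyond their spread, and Socs5, Socs7 and Socs6 overlapped behind them. In LPS-MIC-1, Socs2, Socs5 and Socs1 overlapped, at means of 15.8, 15.8 and 14.4 FPKM, and Cish was last at 0.695 FPKM.

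In muscle, 4 of the 7 members that passed the filter were lower in LPS than in control beyond the thresholds (Socs1, Socs2, Socs3 and Cish) and none was higher. Of all genes tested, 0.591% were called lower and 0.654% higher. Since this contrast chose the family, the count is a description. Set against LPS, LPS-MIC-1 muscle had Socs3 called higher and Socs5 and Cish called lower, with Socs1 higher by description, where 9.67% of all genes were called higher and 5.44% lower. Set against control, Cish was called lower, with Socs1 lower by description, where 9.33% were called higher and 6.12% lower.

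**Figure D3:**
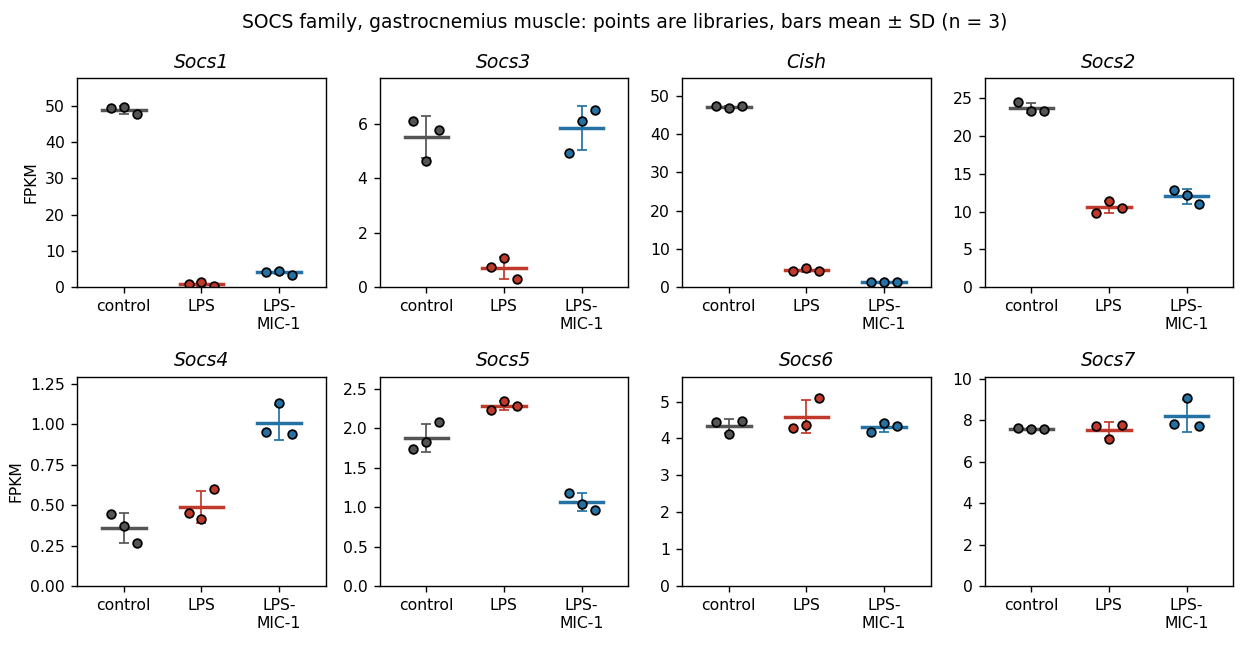
FPKM (vertical axes, each with its own range from 0) of each member in the 3 libraries of each muscle group, as points, with the mean and SD as bars. Socs1 and Cish lie between 46.8 and 49.5 FPKM in control and at 5.05 FPKM or less in the other groups, Socs3 is low in LPS only, and Socs6 and Socs7 sit at similar levels in the 3 groups.

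Socs1 had 49.4, 49.5 and 47.6 FPKM in control muscle, the highest level of any member there. It had 0.792, 1.38 and 0.429 FPKM in LPS, then 4.29, 4.59 and 3.46 in LPS-MIC-1. The 3 groups were far apart, with LPS-MIC-1 between the others but much nearer to LPS. By the ratio of mean FPKM, Socs1 was 56.4-fold lower in LPS than in control, 4.75-fold higher in LPS-MIC-1 than in LPS, and 11.9-fold lower in LPS-MIC-1 than in control. The corresponding log2 differences were -5.79, 2.24 and -3.55. The LPS values rest on about 6.18 to 19.8 reads per library, against 686 to 714 in control and 49.9 to 66.2 in LPS-MIC-1, as estimated from base means (the authors' means of normalized counts).

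The base mean that the authors list for Socs1 in their muscle LPS and control comparison did not match the FPKM. It was 1.52 normalized reads per FPKM, against 14.4 and 14.5 in the other 2 muscle comparisons. For Socs4 it was 5922 against 27.4 and 27.5. Over all genes compared, only 22.4% and 22.5% had a base mean per FPKM within 0.5 log2 units of that in the other muscle comparisons, which matched each other for 100% of genes. In those other comparisons the base mean of Socs1 was 383 over control and LPS-MIC-1 and 35.7 over LPS and LPS-MIC-1, and in the one with LPS and control it was 37.7. The levels given here are those of the FPKM table.

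Endothelial markers were lower too from control to LPS. The 8 endothelial genes, led by Egfl7 and Cdh5, summed to between 122 and 124 FPKM for control, 79.2 and 83.1 for LPS and 77.5 and 84.1 for LPS-MIC-1, with no gene at 0 throughout a group. Their part in the result was not tested. Muscle fibre genes summed to between 245414 and 250463 FPKM in control and 232910 and 236600 in LPS, and the 11 macrophage genes to between 12.05 and 14.2 in control and 14.9 and 17.5 in LPS.

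Cish was the member most like Socs1 in its control level and stayed low in both treated groups. It had 47.3, 46.8 and 47.2 FPKM in control, 4.11, 5.05 and 4.11 in LPS, then 1.41, 1.28 and 1.47 in LPS-MIC-1. The 3 groups were separate, and LPS-MIC-1 was lowest, where Socs1 had been lowest in LPS. Cish was 10.6-fold lower in LPS than in control by description. It fell a further 3.19-fold from LPS to LPS-MIC-1 (log2 fold change -1.60, standard error 0.0899, limma adjusted p = 1.63e-06). Against control, LPS-MIC-1 was 34.0-fold lower (log2 fold change -4.99, adjusted p = 2.18e-09).

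Socs3 was low only in LPS. Its levels were 6.10, 4.63 and 5.78 FPKM in control, 0.725, 1.08 and 0.288 in LPS, then 4.92, 6.11 and 6.49 in LPS-MIC-1. Control and LPS-MIC-1 overlapped, and LPS lay below both, 7.90-fold under control by description. Socs3 rose 8.39-fold from LPS to LPS-MIC-1 (log2 fold change 3.03, standard error 0.358, limma adjusted p = 0.000142). LPS-MIC-1 against control gave 0.08, with a 95% interval from -0.74 to 0.91 (adjusted p = 0.856). The LPS values rest on about 10.3 to 38.4 reads per library, and without replicate 3 of LPS the described difference from control was -2.50 in place of -2.95.

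Socs2 lost part of its level in both treated groups. It had 24.4, 23.3 and 23.3 FPKM in control, 9.80, 11.4 and 10.5 in LPS, then 12.8, 12.3 and 11.0 in LPS-MIC-1. Control stood apart, and the treated groups overlapped. Socs2 was 2.24-fold lower in LPS than in control by description. LPS-MIC-1 exceeded LPS by 0.18 on the log2 scale (95% interval 0.01 to 0.35, limma adjusted p = 0.067), and it passed without replicate 2 of LPS (0.24, adjusted p = 0.0326) or replicate 3 of LPS-MIC-1 (0.25, adjusted p = 0.0218), still far below the fold threshold. LPS-MIC-1 against control gave -0.98 (adjusted p = 9.92e-06), just short of the fold threshold. Without replicate 1 of LPS-MIC-1 it was -1.02, and with quantile normalization -1.12, both past it.

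In muscle, all 3 LPS-MIC-1 libraries had less Socs5 than any library of the other groups, while LPS lay above control. It had 1.73, 1.83 and 2.08 FPKM in control, 2.23, 2.34 and 2.29 in LPS, then 1.18, 1.04 and 0.959 in LPS-MIC-1. The 3 groups did not overlap. Socs5 fell 2.16-fold from LPS to LPS-MIC-1 (log2 fold change -1.04, standard error 0.129, limma adjusted p = 0.000189). Without replicate 3 of LPS-MIC-1, in which macrophage genes summed to 148 FPKM against 16.2 and 17.6 in the other replicates, the change was -0.98, just under the fold threshold, and with 1 added in place of 0.1 it was -0.67. LPS-MIC-1 against control gave -0.77 (adjusted p = 0.00108), also under the fold threshold.

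Socs4 was the least abundant member in control muscle and was below the filter. It had 0.449, 0.372 and 0.263 FPKM in control, 0.452, 0.416 and 0.599 in LPS, then 0.956, 1.13 and 0.941 in LPS-MIC-1. LPS-MIC-1 lay above the other 6 libraries, and those overlapped. In a fit without the filter, on genes above 0 in at least 3 libraries, the log2 difference of LPS-MIC-1 was 0.92 from LPS (limma adjusted p = 0.0117) and 1.28 from control (adjusted p = 0.00208). All 9 values rest on about 7.23 to 31.2 reads per library.

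Socs6 and Socs7 gave no called difference in muscle. Socs6 lay between 4.11 and 4.47 FPKM in control, 4.30 and 5.11 in LPS, then 4.18 and 4.42 in LPS-MIC-1. Socs7 lay between 7.57 and 7.63, 7.08 and 7.77, and 7.72 and 9.09 FPKM. The groups overlapped, except that the 3 LPS-MIC-1 libraries lay above control for Socs7. The 95% interval of LPS-MIC-1 against LPS ran from -0.27 to 0.11 for Socs6 and from -0.05 to 0.29 for Socs7, and against control from -0.20 to 0.18 and from -0.06 to 0.28.

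**Figure D4:**
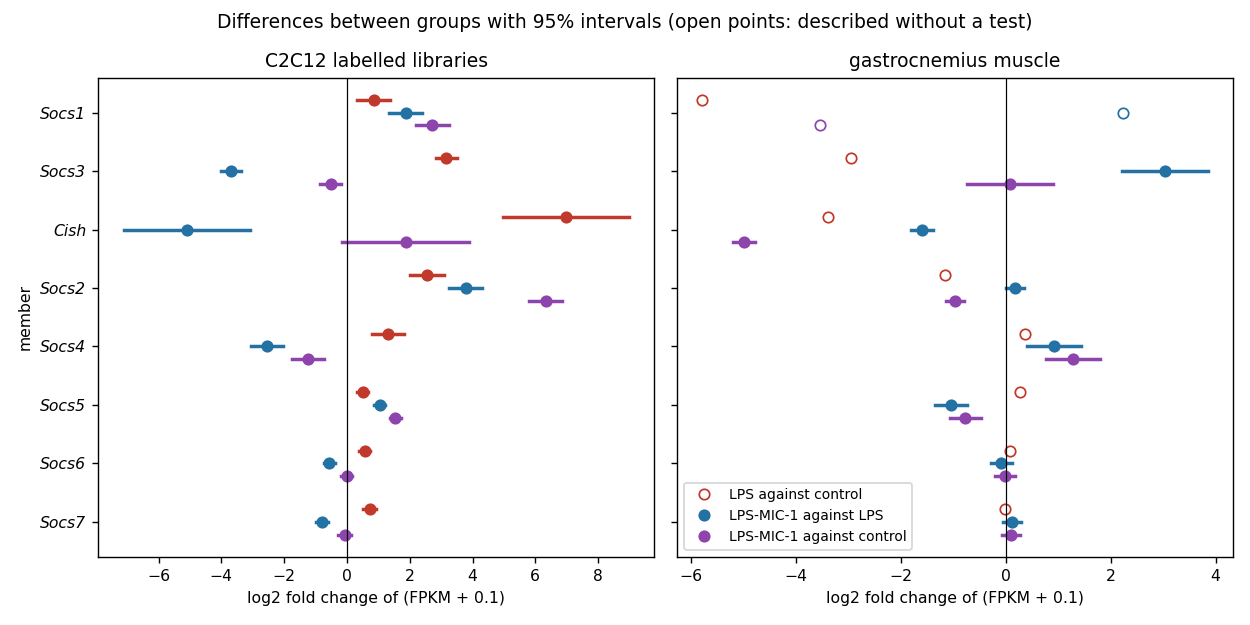
Log2 fold change of FPKM + 0.1 (horizontal axis) of each member in 3 comparisons, in the C2C12 table and in muscle, with 95% intervals from limma. Open points without an interval are described and not tested. Socs3 lies at 3.17 and -3.69 in the first 2 comparisons of the C2C12 table and at -2.95 and 3.03 in those of muscle. Socs4 in muscle comes from the fit without the FPKM filter.

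In control muscle, each member was separate from its neighbours in the order Socs1, Cish, Socs2, Socs7, Socs3, Socs6, Socs5 and Socs4. In LPS the order was headed by Socs2, at a mean of 10.6 FPKM, and Socs7, at 7.52. Socs6 and Cish came next and overlapped, ahead of Socs5, and Socs1, Socs3 and Socs4 overlapped at the bottom, each under a mean of 1 FPKM. In LPS-MIC-1, Socs3 came after Socs2 and Socs7, at 5.84 FPKM, ahead of Socs6 and Socs1, which overlapped.

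Genes with a pattern most like a member were listed by Pearson's r of log2(FPKM + 0.1) over the 9 libraries of a table. These libraries share their 3 groups, so r is given as a description. In muscle, Cited2, a transcriptional coregulator, was nearest to Socs1 (r = 0.991), with means of 120, 20.8 and 44.8 FPKM in control, LPS and LPS-MIC-1. Efcab6, Tmsb4x, Wnt4 and the endothelial cadherin Cdh5 followed, with r from 0.974 to 0.983. Nearest to Socs3 in muscle were Mib1, Irf2bp2, Cars, Chac1 and 2610035D17Rik (r from 0.957 to 0.970), of which Chac1, a glutathione-degrading stress-response enzyme, went from 98.0 to 7.76 to 111 FPKM. For the C2C12 table, Socs1 was nearest to Tenc1, Arfrp1, Traf4, Itfg3 and Eapp (r from 0.989 to 0.993). Socs3 was nearest there to Nat6, Lonrf1, Rybp, Spag9 and Mpp5 (r from 0.998 to 0.999).

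The STATs that induce SOCS genes and their other targets were then set beside the members, from lists of the pathway. In LPS-MIC-1 muscle against LPS, 9 of 11 STAT3 targets were called higher and none lower, with a median log2 fold change of 2.68, where 9.67% of all genes were called higher and their median was -0.01. Of those 9, 4 (Fgl2, Icam1, Myc and Timp1) passed the filter only through LPS-MIC-1. Cebpd, a transcription factor of the acute-phase response, went from 4.66 ± 0.654 to 399 ± 22.2 FPKM (log2 fold change 6.40, limma adjusted p = 1.02e-09), and the adhesion molecule Icam1 from 0.749 ± 0.162 to 6.82 ± 0.780. Socs3, itself a STAT3 target, was higher as well in that comparison, but it did not follow the list in the others. In LPS against control the list had 1 gene called higher and 2 lower, where 0.654% and 0.591% of all genes were. Its median was -0.16, beside -2.95 for Socs3. In LPS-MIC-1 against control, 10 of 11 were called higher, where 9.33% of all genes were. The median was 2.50, beside 0.08 for Socs3. The 4 genes that passed only through LPS-MIC-1 include the 1 higher and 1 of the 2 lower in LPS against control. All 4 are among the 10 higher in LPS-MIC-1 against control. Neutrophil markers, 7 genes found of 8, summed to between 1.58 and 2.02 FPKM in LPS and between 14.0 and 19.7 in LPS-MIC-1, and their part in these results was not tested.

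STAT5 targets were the list to set beside Cish and Socs2. In LPS-MIC-1 muscle against control, 4 of 7 were called lower and 1 higher, where 6.12% and 9.33% of all genes were, and the list had a median of -1.04 on the log2 scale (0.01 for all genes). Against LPS, 1 was called in each direction. Igf1, the growth factor that growth hormone induces, had 6.43 ± 0.279 FPKM in control, 7.28 ± 0.427 in LPS, then 3.08 ± 0.140 in LPS-MIC-1, and fell by 1.21 from LPS to LPS-MIC-1 on the log2 scale (limma adjusted p = 2.02e-06). Bcl2l1, an inhibitor of apoptosis, was the called gene that rose (log2 fold change 2.70, adjusted p = 0.00109). In LPS against control muscle, where Cish and Socs2 were lower, none of the 7 was called by limma (1 was higher and 2 were lower at an unadjusted p under 0.05), and their median was -0.55. Only 0.654% of all genes were called higher there and 0.591% lower.

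**Figure D5:**
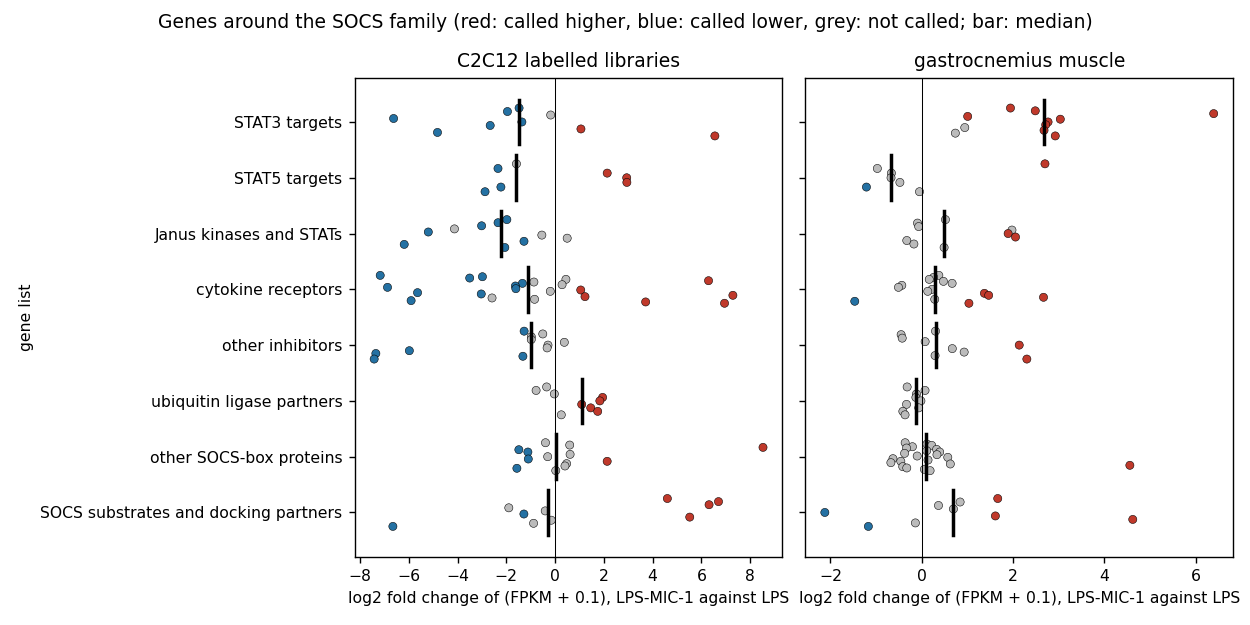
Log2 fold change of FPKM + 0.1 in LPS-MIC-1 against LPS (horizontal axis) for the tested genes of 8 pathway lists (rows), in the C2C12 table and in muscle. Red points were called higher, blue points lower and grey points neither, and bars are medians. In muscle the STAT3 targets all lie right of 0, with a median of 2.68, and in the C2C12 table they lie mostly left of 0, with a median of -1.48.

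Of 9 Janus kinases and STATs tested in muscle, 2 were called higher in LPS-MIC-1 than in LPS and none lower, where 9.67% of all genes were called higher and 5.44% lower. Those shares apply to each list of this comparison. Stat3, the transducer of interleukin-6, went from 7.06 ± 0.323 to 29.7 ± 1.12 FPKM (log2 fold change 2.06, limma adjusted p = 1.75e-08). Stat2, an interferon transducer, rose by 1.89. Of 15 receptors, 4 were called higher and 1 lower. Il4ra, the interleukin-4 receptor chain, rose by 2.67 and Lifr, the receptor for leukaemia inhibitory factor, fell by 1.47 on the log2 scale. Of the ligands only 2 passed the filter. One was Csf3, the granulocyte growth factor, which passed only through LPS-MIC-1 and had a mean of 0 FPKM for control, 0.0423 for LPS and 8.13 for LPS-MIC-1.

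Inhibitors of the pathway outside the family were measured too. In muscle, 2 of 9 were called higher in LPS-MIC-1 than in LPS and none lower. Ptpn1, a tyrosine phosphatase acting on JAKs, went from 5.77 ± 0.214 to 25.7 ± 1.01 FPKM, and Usp18, a brake on the type I interferon receptor, from 1.57 ± 0.424 to 7.98 ± 0.576. In LPS against control muscle none of these 9 was called by limma in either direction, 1 was higher and none lower at an unadjusted p under 0.05, and their median log2 fold change was 0.05. At the same contrast the described medians were 0.00 for 22 tested SOCS-box proteins outside the family, 0.04 for 9 ubiquitin ligase partners and 0.01 for 9 substrates and docking partners, with none called by limma in these 3 lists. At an unadjusted p under 0.05, the SOCS-box list had 3 higher and 3 lower, the ligase list 0 and 1, and the docking list 1 and 3. Of all genes, only 0.654% were called higher and 0.591% lower in that contrast.

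Of the parts of the ubiquitin ligase that SOCS proteins recruit, 0 of 9 were called by limma in each of the 3 muscle comparisons. Of all genes, 0.654% were called higher and 0.591% lower in LPS against control. The shares were 9.67% and 5.44% in LPS-MIC-1 against LPS, and 9.33% and 6.12% in LPS-MIC-1 against control. At an unadjusted p under 0.05, 2 were lower against LPS in LPS-MIC-1, and 1 was higher and 3 were lower against control. In the C2C12 table, 5 of 9 were called higher in LPS-MIC-1 than in LPS, as were 24.3% of all genes. Nedd8, which activates cullins, went from 136 ± 3.91 to 530 ± 93.6 FPKM, and Rbx1, the ring-finger subunit, from 33.6 ± 0.423 to 121 ± 19.5. Among SOCS-box proteins outside the family, Spsb1, which targets inducible nitric oxide synthase, was the 1 of 22 tested that was called in LPS-MIC-1 muscle. It went from 1.45 ± 0.167 FPKM in LPS to 36.4 ± 0.931 (log2 fold change 4.56, limma adjusted p = 2.04e-08), against 1.74 ± 0.275 in control.

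Among docking partners in muscle, Irs1, the insulin receptor substrate, had 18.8 ± 0.459 FPKM for control, 14.0 ± 0.143 for LPS and 3.14 ± 0.0664 for LPS-MIC-1. It fell by 2.12 from LPS to LPS-MIC-1 on the log2 scale (limma adjusted p = 4.77e-09), while the receptor kinase Kit had 0.123 ± 0.0476 and 5.34 ± 0.402 FPKM. In all, 3 of 9 such genes were called higher and 2 lower, where 9.67% and 5.44% of all genes were. Of those 3, Kit and Egfr passed the filter only through LPS-MIC-1.

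The same lists were read in the C2C12 table, where the markers had gone against the labels. From LPS to LPS-MIC-1, 6 of 9 STAT3 targets, 7 of 10 Janus kinases and STATs and 8 of 9 ligands were called lower. Among all genes 25.6% were. Stat6 had 57.6 ± 0.610 FPKM in LPS, then 0.911 ± 0.893 in LPS-MIC-1, and Osm, a ligand of the gp130 family, had 153 ± 3.61 and 1.83 ± 3.00. The STAT3 target Timp1 was called higher, by 6.55 on the log2 scale. Receptors went both ways, with 6 of 22 called higher and 10 lower. So did docking partners, with 4 of 10 higher and 2 lower. Among all genes 24.3% were called higher. Of these receptors, 4 called higher and 2 called lower passed the filter only through the group where they are highest. So did all 4 docking partners called higher and 1 of the ligands called lower, so these calls are not independent of the filter. The receptor chain Il3ra, the docking partner Erbb2 and the SOCS-box protein Asb5 passed the filter only through LPS-MIC-1, where they had 18.1, 11.5 and 112 FPKM, against means of 0.0164, 0.0122 and 0.227 in LPS. From control to LPS, 4 of 9 ligands were called higher, with a median of 2.88, together with 6 of 9 STAT3 targets (median 1.72) and 5 of 7 STAT5 targets (median 1.61, with 2 called lower). Among all genes 10.9% were called higher and 10% lower, and their median was 0.00. Of the 4 ligands, 1 passed the filter only through the group where it is highest.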

How the data were processed

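Reads were pseudoaligned with kallisto and summarised per gene by the authors, who deposited FPKM per library and DESeq2 tables of 6 comparisons. The processing notes name mm9. The deposited base means, a signal of normalized counts averaged over the libraries compared, served here only to estimate reads per FPKM. The fold changes and p-values of those tables were not used, nor were 9 per-sample columns without a name in the muscle table. Reads per library are not given in the sources used here, and base means summed to between 13873500 and 35868800 per comparison.

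Each table was fitted separately with limma 3.58.1 in R 4.3.3 on log2(FPKM + 0.1), with group means over 9 libraries, eBayes with a trend and Benjamini-Hochberg adjustment over genes with a mean FPKM over 1. The thresholds follow the study's. Since FPKM are not counts, no count model was fitted. Steps were checked on simulated data. Across genes, r between replicates lay from 0.936 to 0.989.

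The members, the pathway and marker lists and the tests were chosen with earlier results of these data known. All 8 members are named. From a pathway list, at most the 2 largest changes among genes called in LPS-MIC-1 against LPS were named, and for Socs1 and Socs3 the 5 genes with the highest r. One pathway list is not reported here. Myod1, Mt1 and Mt2 were named after their values were seen. The fits were repeated with each library left out in turn, with a replicate block, with eBayes lacking the trend, and with only the 6 libraries of a comparison. Other repeats used quantile normalization, median-ratio scaling, a pseudocount of 1 or 0.01, no filter, or a filter at a mean of 5 FPKM.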

Additional observations from a re-analysis of the deposited data

Results flagged for a closer look

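For 11 comparisons of single members, every library lay on one side in the C2C12 table and every library on the opposite side in muscle. How many of all genes do the same was not counted, so this is not shown to be particular to the family. In the C2C12 table alone, all 3 LPS libraries lay above all 3 control libraries for 39.4% of tested genes. In comparisons with the C2C12 LPS-MIC-1 libraries, cell type and treatment cannot be told apart. The 2 tables were normalized separately and these differences were not tested. All values are log2 fold changes of FPKM + 0.1.

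For LPS against control, Socs1 was at 0.85 in the C2C12 table and -5.79 in muscle. Socs2 was at 2.55 and -1.16, Socs3 at 3.17 and -2.95, and Cish at 6.97 and -3.39. For LPS-MIC-1 against LPS, Socs3 was at -3.69 in the C2C12 table and 3.03 in muscle, Socs4 at -2.55 and 0.92, and Socs5 at 1.04 and -1.04. For LPS-MIC-1 against control, Socs1 was at 2.72 and -3.55, Socs2 at 6.33 and -0.98, Socs4 at -1.24 and 1.28, and Socs5 at 1.54 and -0.77. The muscle values of Socs4 come from the fit without the FPKM filter, since its mean lay below 1 FPKM.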

How the results depend on the processing

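Over all alternatives, 735 of 801 values of single members counted as unchanged and 0 as reversed. Unchanged meant the same side of the adjusted p threshold, or a move of less than the spread where no test was made. A tested value that changed sign counted as reversed only if either fit passed the adjusted p. An untested value that changed sign did so only if its main fit passed both thresholds. Small differences may therefore have changed sign among the 735. In the C2C12 table, the number of members called in LPS against control was 4, and it became 2 with a pseudocount of 0.01 (Cish and Socs4 lost) and 3 with the replicate block, without the FPKM filter or with eBayes lacking the trend (Socs4 lost), and 3 with a pseudocount of 1 (Socs2 lost, at 0.90). Leaving out 1 library gave from 2 to 4, where Cish, Socs4 or both lost their calls. LPS-MIC-1 against LPS gave 6, 5 with the replicate block and from 4 to 6 with 1 library left out, and LPS-MIC-1 against control gave 4, 3 with the replicate block and from 3 to 4. In muscle, 4 members lay past the thresholds in LPS against control, also with the block and with any 1 library left out. Since this contrast chose the family, that count is a description, and its stability is not support. LPS-MIC-1 against LPS gave 4, with Socs1 counted in, also 4 with the block, from 3 to 4 with 1 library left out, and 2 with a mean FPKM over 5, which left out low members. LPS-MIC-1 against control gave 2, with Socs1 counted in, the same with the block, and from 2 to 3 with 1 library left out. Libraries with the same replicate number did not deviate together (correlations from -0.0757 to 0.0823), so the numbers are not shown to pair libraries. In the C2C12 table the block took the adjusted p of Socs4 to 0.00189 in LPS against control and 0.00149 in LPS-MIC-1 against control, and that of Cish to 0.00185 in LPS-MIC-1 against LPS.

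With only the 6 libraries compared, the calls of Cish in LPS-MIC-1 against LPS (adjusted p = 0.00353) and of Socs4 in LPS-MIC-1 against control (adjusted p = 0.0048) were lost in the C2C12 table. A pseudocount of 1 ended the Socs5 calls in LPS-MIC-1 against LPS, at 0.96 in the C2C12 table and -0.67 in muscle, and took the described muscle differences of LPS from control to -4.77 for Socs1, -3.15 for Cish and -1.96 for Socs3. Quantile normalization moved the median of all genes in LPS-MIC-1 against LPS muscle to -0.12, and the calls there from 916 higher and 515 lower to 781 and 667. A pseudocount of 1 moved those calls to 730 and 275, and those of LPS against control muscle from 62 higher and 56 lower to 37 and 34. Without the FPKM filter, muscle had 85 higher and 88 lower in LPS against control, 1360 and 798 in LPS-MIC-1 against LPS and 1325 and 915 in LPS-MIC-1 against control, where a mean FPKM over 5 gave 31 and 26, 452 and 204, and 462 and 215. In LPS-MIC-1 against control, calls went from 884 and 580 to 728 and 341 with a pseudocount of 1 in muscle, and from 2300 and 2408 to 1533 and 1867 with a mean FPKM over 5 in the C2C12 table. The causes were not tested. Members near or below 1 FPKM rest on few reads, which limits their precision, and no counting interval can be given for FPKM.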
